A study of Homo sapiens with 6 samples.

Results

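The respiratory chain and ATP synthase of the inner mitochondrial membrane are built from subunits of which most are encoded in the nucleus. Complex I (NADH dehydrogenase) and complex II (succinate dehydrogenase) pass electrons to coenzyme Q, complex III passes them to cytochrome c and complex IV (cytochrome c oxidase) to oxygen, and complex V uses the proton gradient so formed to make ATP. Leukaemic cells of the acute myeloid type are known to depend in part on this oxidative metabolism. The genes described here are the nuclear genes of these 5 complexes, chosen by their symbols from the array annotation, with assembly factors, pseudogenes and antisense genes left out. Each gene is represented by its brightest probe set, by the mean of the 6 arrays, out of those naming 1 gene. This gave 77 of 19775 genes, of which 33 belong to complex I, 3 to complex II, 7 to complex III, 17 to complex IV and 17 to complex V.

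The OCI-AML3 line was derived from human acute myeloid leukaemia (AML) and carries a mutation of nucleophosmin (NPM1). RNA of 3 samples given 1 μM Vorinostat, also called SAHA, an inhibitor of histone deacetylases, for 24 hours and of 3 samples given the solvent DMSO for 24 hours was hybridised to Affymetrix Human Genome U133 Plus 2.0 arrays. Samples of each group are numbered 1, 2 and 3, and nothing in the sources states that these came from separate cultures, so that a p-value reflects the spread of these samples alone, which can be technical. The comparison asks how the RNA level of the subunit genes differed between Vorinostat and DMSO, in all and within each replicate number. Values are log2 values as deposited, without further normalisation, and a difference is Vorinostat minus DMSO, so that −1 stands for a level at 1/2.

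Signal differed more between the replicate numbers than between the groups. Probe sets above a log2 value of 3 numbered 8158, 2769 and 3274 on Vorinostat arrays 1, 2 and 3, and 8645, 3731 and 2761 on DMSO arrays 1, 2 and 3. The GAPDH probe sets for the 3′ and 5′ ends of the transcript, a sign of RNA integrity, differed by 1.51, 1.69 and 2.26 on the Vorinostat arrays and by 0.99, 1.02 and 4.02 on the DMSO arrays. Those of ACTB differed by 3.41, 2.70 and 3.83 on the Vorinostat arrays and by 4.51, 2.77 and 4.04 on the DMSO arrays. Of the 9 markers listed for a myeloid leukaemia line 7 were measured, and LYZ, CEBPA and NPM1 lay above 3 on all 6 arrays, while MPO, SPI1 and CSF3R lay under 3 on all of them. Of the 13 measured markers of T cells, B cells, erythroid cells, fibroblasts and epithelial cells, CD79A and COL1A2 exceeded 3, each on 1 Vorinostat array.

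No subunit gene passed the test with adjustment over all probe sets, and the direction of most of them depended on the replicate number. The median over the 77 genes was 7.25, 3.33 and 4.39 on Vorinostat arrays 1, 2 and 3, and 7.28, 4.64 and 4.04 on DMSO arrays 1, 2 and 3. The groups thus overlapped widely, with both arrays numbered 1 high. In bulk RNA, fewer cells of a type and less RNA per cell cannot be told apart. Within the numbers, the median difference of the subunit genes was −0.14 in number 1, −1.56 in number 2 and 0.15 in number 3. The pairs in numbers 2 and 3 rest on the labels. Vorinostat array 2 deviated with DMSO array 3 (correlation 0.695) about as closely as with DMSO array 2 (0.599). The subunit genes were lower under Vorinostat for 48 genes in number 1, for 69 in number 2 and for 32 in number 3. Over the numbers 65 of the 77 genes had a lower mean under Vorinostat, against 10502 of all 19775 genes. With a mean above 5 it was 37 of 39 subunit genes and 643 of all 803. The median difference of the 77 genes was −0.43, against −0.02 for all genes. Among genes with a mean above 3 the median was −0.49 for the subunit genes and −0.23 for all genes, and among those above 5 it was −0.57 and −0.45. The median of the 77 genes depended on the arrays included. With a whole number left out it was −0.50 without number 1, −0.01 without number 2 and −0.85 without number 3. Single arrays left out, with their partners kept, gave 0.24 without Vorinostat array 2, 0.29 without DMSO array 1 and −1.49 without Vorinostat array 1. After quantile normalisation the median was −0.14.

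**Figure D1:**
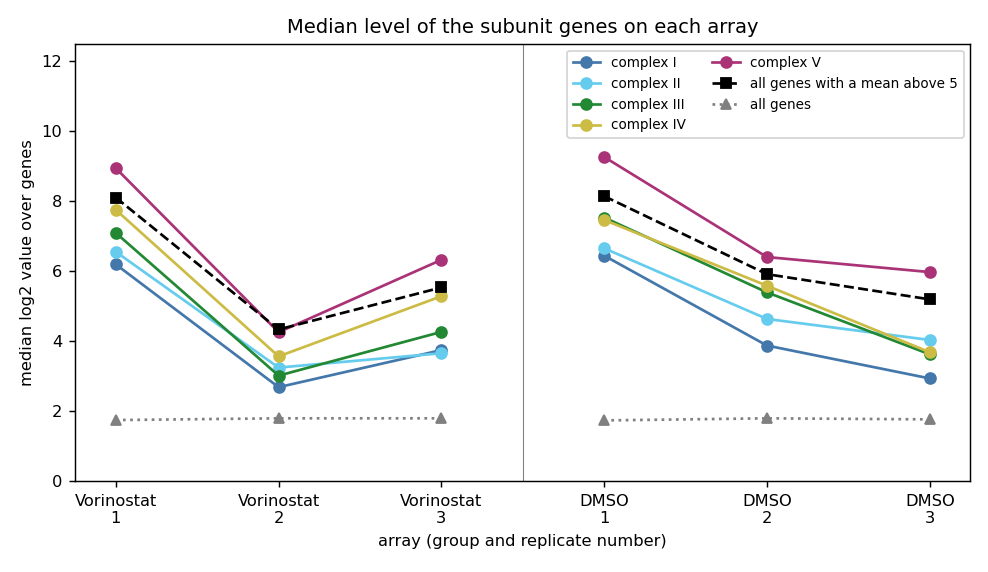
Median log2 value of the subunit genes of each complex on each array, with Vorinostat on the left and DMSO on the right, and squares give all 803 genes with a mean above 5 and triangles all 19775 genes. Every complex stood highest on the arrays numbered 1, and on Vorinostat array 2 stood below DMSO array 2, as the squares did.

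Other genes of like signal shared most of this pattern. Over all 19775 genes, most of which are near background, the median difference was −0.01, −0.04 and 0.03 in numbers 1, 2 and 3. The 39 subunit genes with a mean above 5 had medians of −0.10, −2.17 and 0.06, and all 803 genes with a mean above 5 had −0.06, −1.65 and 0.16. In number 2, 100% of those 39 subunit genes were lower under Vorinostat, against 96.5% of the 803 genes. The part of array signal and RNA integrity in these differences was not tested.

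By limma across all probe sets, 0 of the 77 subunit genes had an adjusted p under 0.05, where 0% of all genes did, and every subunit gene had an adjusted p of 1. At the study's threshold of over 2-fold with an unadjusted p under 0.05, 0 subunit genes were lower and 0 higher, where 0.0506% and 0.0455% of all genes were. At an unadjusted p under 0.05 alone the counts were again 0, where 0.389% of all genes were lower and 0.602% higher. No subunit gene had its Vorinostat and DMSO arrays apart, where 1.95% of all genes were lower and 2.30% higher without overlap. Since samples with the same number deviated together from their group means, limma was also run with the replicate number as a block. Arrays numbered 2 and 3 deviated together across these numbers as well, so there the block rests on the labels. Again 0 subunit genes passed an adjusted p under 0.05, where 0% of all genes did, the lowest adjusted p of a subunit gene being 0.887. The block gave 9 lower and 1 higher subunit genes at an unadjusted p under 0.05, where 3.12% of all genes were lower and 2.25% higher. Past 2-fold it gave 5 lower subunit genes, namely NDUFB2, NDUFB11, NDUFC1, NDUFV2 and UQCRB, and 0 higher, where 0.632% of all genes were lower and 0.197% higher. Among genes with a mean above 3, 5 of 65 subunit genes were so lower, where 3.26% of all such genes were, and among those above 5 it was 3 of 39, where 5.48% were. By the unadjusted p alone the counts were 9 of 65, where 9.35% of all such genes were lower, and 6 of 39, where 9.84% were.

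A consistent sign was seen for a minority. In numbers 2 and 3 the sign depends on which arrays are paired, here by their labels. Lower values under Vorinostat in all 3 replicate numbers were found for 22 subunit genes (28.6%), where 13.7% of all genes were lower in each number. Among genes with a mean above 3 the count was 20 of 65 subunit genes (30.8%), where 19.5% of all such genes were, and among those above 5 it was 15 of 39 (38.5%), where 24.4% were. The difference of these shares was not tested. NDUFA9 and NDUFB5 alone were higher in all 3 numbers, where 13.0% of all genes were. Both lay above 3 and under 5, and 3.08% of the subunit genes above 3 were thus higher in each number, where 5.71% of all such genes were, with 0 of the 39 above 5, where 1.87% of all such genes were. With number 2 left out, 25 subunit genes (32.5%) were lower in both other numbers, where 23.3% of all genes were.

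**Figure D2:**
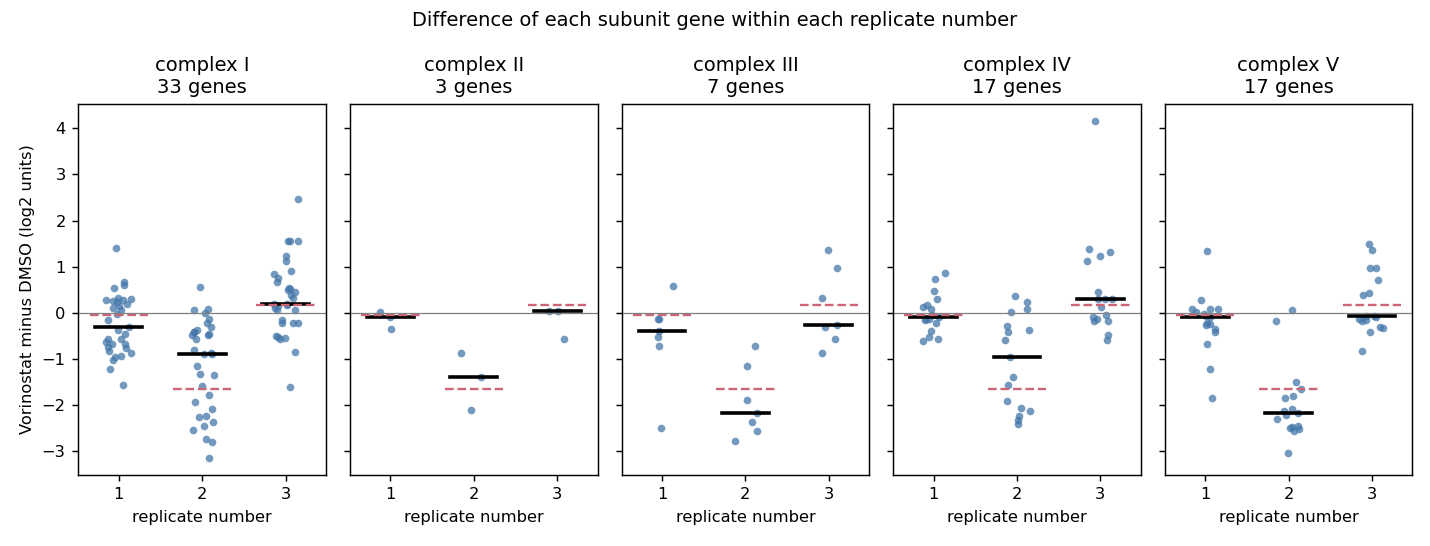
Difference of each subunit gene, Vorinostat minus DMSO in log2 units, within replicate numbers 1, 2 and 3, by complex; black bars are the medians of the complex and dashed red bars the median of all genes with a mean above 5. The low values of number 2 stand in every complex, while number 3 has medians at or above 0 in complexes I, II and IV.

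The share of genes lower in all 3 numbers varied between complexes, which was not tested. Of all genes 13.7% were so lower, with 19.5% of those with a mean above 3 and 24.4% of those above 5. Signal varied as well, the median group means under Vorinostat and DMSO being 4.18 and 4.49 in complex I and 6.72 and 7.14 in complex V. Lower in all 3 numbers were 8 of 33 genes (24.2%) of complex I, 1 of 3 (33.3%) of complex II and 4 of 7 (57.1%) of complex III. In complex IV it was 1 of 17 (5.88%) and in complex V 8 of 17 (47.1%). In complex I these were NDUFA5, NDUFA7, NDUFB2, NDUFB10, NDUFB11, NDUFC1, NDUFS1 and NDUFV2, in complexes II to IV SDHD, CYC1, UQCR10, UQCRB, UQCRC2 and COX7C, and in complex V ATP5F1A, ATP5F1C, ATP5F1E, ATP5MJ, ATP5MK, ATP5PD, ATP5PF and ATP5PO. The median difference of complex III was −0.39, −2.17 and −0.27 in numbers 1, 2 and 3, and that of complex V was −0.09, −2.17 and −0.08. In complex I the medians were −0.30, −0.89 and 0.20, in complex II −0.10, −1.39 and 0.03, and in complex IV −0.09, −0.97 and 0.29. Complexes III and V therefore had negative medians in each number, and the others did not. Over the numbers the medians were −0.39 for complex I, −0.60 for complex II, −0.88 for complex III, −0.08 for complex IV and −0.69 for complex V, each less than the spread of its array medians (SD of 1.37 to 2.35, n = 3 arrays). After quantile normalisation these medians were −0.24, −0.37, −0.71, 0.04 and −0.26 for complexes I to V, and that of complex IV was −0.33 as deposited once 6 isoforms known from other tissues were left out.

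To show sequence beside the members, promoters of RefSeq genes (build GRCh38.p14; 250 bases before to 50 after the start) were searched on both strands for the letters CGCATGCG, the core of sites for NRF1, CCGGAAG, the core of sites for ETS factors such as GABPA, and AAGATGGC, a core of YY1 sites. These factors are known regulators of respiratory genes. Of the 77 genes 65 had an entry, with 78 promoters, and CGCATGCG stood in 14.1% of these, against 2.02% of all 35116 promoters and 2.49% of those of protein-coding genes. CCGGAAG stood in 25.6% of the subunit promoters, against 10.3% of all promoters. AAGATGGC stood in 15.4%, against 2.89% of all promoters. A match is a description of letters and not evidence of binding.

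Of the 20 genes with an entry that were lower in all 3 numbers 4 held CGCATGCG, against 7 of the 45 others, CCGGAAG was held by 6 of the 20 and 13 of the 45, and AAGATGGC by 3 and 8 of them. Shown are 60 bases upstream of the start around CGCATGCG for these 4 genes, printed 5′ to 3′ on the strand of the gene, with matches to the motifs in capitals. They lie at chr7:123557932-123557991 on the minus strand (NDUFA5), chr10:7788117-7788176 on the plus strand (ATP5F1C), chr11:112086748-112086807 on the plus strand (SDHD) and chr21:25735130-25735189 on the minus strand (ATP5PF).
NDUFA5: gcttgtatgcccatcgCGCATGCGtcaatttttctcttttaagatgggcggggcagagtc
ATP5F1C: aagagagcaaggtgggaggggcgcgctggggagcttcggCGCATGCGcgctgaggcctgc
SDHD: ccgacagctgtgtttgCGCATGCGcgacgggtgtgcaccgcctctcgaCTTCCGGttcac
ATP5PF: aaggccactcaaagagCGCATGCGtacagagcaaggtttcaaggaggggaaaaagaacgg
The NRF1 letters began 157, 21, 109 and 119 bases upstream of the start of NDUFA5, ATP5F1C, SDHD and ATP5PF, and SDHD also held the ETS letters, here read on the other strand, 77 bases upstream. ATP5PF also held ETS letters 8, 30 and 180 bases and YY1 letters 57 and 207 bases upstream, outside the stretch shown.

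In complex I, NDUFV1, NDUFV2 and NDUFS1 of the catalytic arm had lower means under Vorinostat, though their groups overlapped. Of these, NDUFV2 and NDUFS1 were lower in each number. NDUFV1 binds NADH and FMN, and NDUFV2 and NDUFS1 carry iron-sulphur clusters of the electron path. NDUFV2 had values of 7.41, 1.96 and 2.43 on Vorinostat arrays 1, 2 and 3, and 8.17, 4.33 and 2.95 on DMSO arrays 1, 2 and 3. It was lower by 0.75, 2.37 and 0.52 log2 units in numbers 1, 2 and 3, a mean difference of −1.21 (SE 2.01, or 0.41 with the replicate block), while the groups overlapped and both arrays numbered 1 were high. NDUFS1 had 6.15, 2.31 and 2.40 on Vorinostat and 7.09, 2.32 and 2.63 on DMSO arrays, with differences of −0.94, −0.01 and −0.23 in numbers 1, 2 and 3. NDUFV1 had 4.83, 1.99 and 2.29 on Vorinostat and 5.81, 2.87 and 2.13 on DMSO arrays, lower in numbers 1 and 2 only.

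NDUFS3 and NDUFS7, which lie in the part of the catalytic arm that leads electrons to coenzyme Q, were higher in number 3, as NDUFV1 was by 0.16. NDUFS3 had 5.22, 2.55 and 4.39 on Vorinostat and 5.59, 2.97 and 2.83 on DMSO arrays, higher in number 3 alone. NDUFS7 had 4.21, 2.51 and 3.87 on Vorinostat and 3.60, 2.64 and 2.74 on DMSO arrays, higher in numbers 1 and 3. Its mean difference of 0.54 (SE 0.52) was the highest of the 77 genes. The core gene NDUFS8 was not analysed here, since its probe set also names another gene.

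Of the 4 genes of complex I that were past 2-fold with the block, 3 encode accessory subunits of the membrane arm. NDUFB2 had 7.66, 3.49 and 5.43 on Vorinostat and 8.69, 5.75 and 5.99 on DMSO arrays, the largest mean difference of the 77 genes at −1.28 (SE 1.32, or 0.37 with the replicate block). NDUFB11 had 5.11, 1.61 and 3.72 on Vorinostat and 5.99, 3.69 and 4.28 on DMSO arrays, with a mean difference of −1.18 (SE 1.06, or 0.34 with the block). NDUFC1 had 8.04, 5.15 and 5.30 on Vorinostat and 8.34, 6.47 and 6.92 on DMSO arrays, with a mean difference of −1.08 (SE 0.94, or 0.29 with the block). NDUFA5, whose promoter holds the NRF1 letters, had differences of −1.22, −0.30 and −0.23 at a mean level under 3. Each of these genes was lower in all 3 numbers, and NDUFB2, NDUFB11 and NDUFC1 each had an adjusted p of 1 by limma and of 0.887 with the block. In NDUFC1 the difference was largest in number 3, at −1.62, and in NDUFB2 and NDUFB11 it was largest in number 2.

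NDUFB10, a further accessory subunit, had 5.78, 4.79 and 4.97 on Vorinostat and 6.25, 5.28 and 5.48 on DMSO arrays. Its differences of −0.46, −0.49 and −0.51 were the closest to each other among the genes named here (mean −0.49, SE 0.37, or 0.09 with the block). The other bright probe set of NDUFB10 did not show this, with differences of 0.44, −1.27 and 0.37. NDUFA9, a subunit that helps stabilise the junction of both arms, had 4.56, 2.86 and 2.94 on Vorinostat and 4.41, 2.30 and 2.27 on DMSO arrays. NDUFB5 had 6.20, 3.60 and 3.75 on Vorinostat and 6.10, 3.52 and 2.85 on DMSO arrays. These genes were higher in each number, by a mean of 0.46 and 0.37 (SE with the block 0.14 and 0.21), though for NDUFB5 by only 0.11 and 0.08 in numbers 1 and 2. The differences over complex I ranged between −1.56 and 1.41 in number 1, between −3.15 and 0.56 in number 2 and between −1.62 and 2.47 in number 3.

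**Figure D3:**
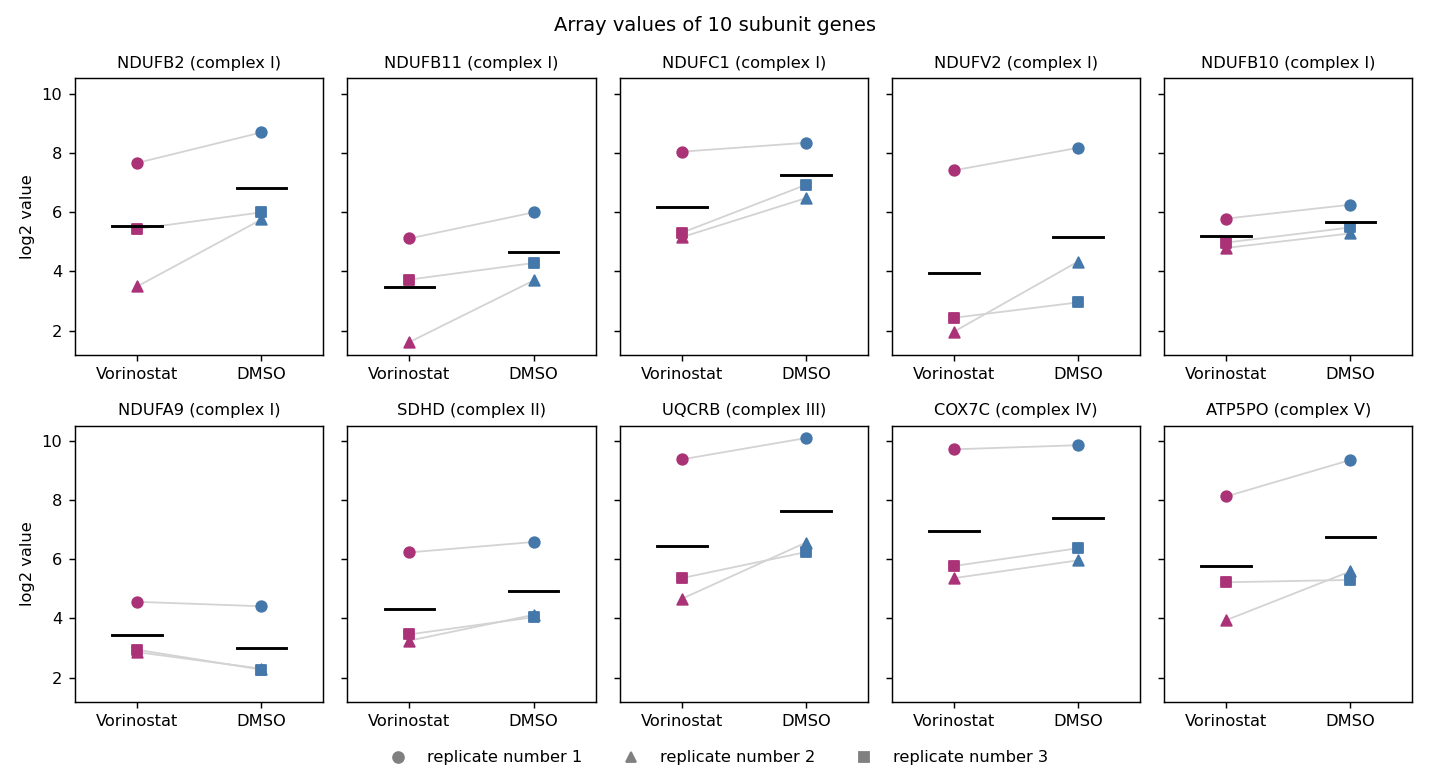
Log2 values of 10 subunit genes on each array, Vorinostat on the left and DMSO on the right, with markers for replicate numbers 1 (circle), 2 (triangle) and 3 (square), grey lines within a number and bars for the group means. NDUFA9 alone of the 10 was higher in each number, the other 9 were lower in each, and the groups overlap in all of them. The 10 were chosen after their values were seen.

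Complex II links the respiratory chain with the citric acid cycle, and SDHA holds its active site for succinate, while SDHC and SDHD anchor it in the membrane. SDHD, whose promoter holds both the NRF1 and the ETS letters, had 6.23, 3.25 and 3.46 on Vorinostat and 6.58, 4.12 and 4.04 on DMSO arrays. It was the 1 gene of complex II that was lower in each number, by a mean of 0.60 log2 units (SE 1.10, or 0.14 with the replicate block). SDHC had 6.56, 4.02 and 5.63 on Vorinostat and 6.66, 6.13 and 5.61 on DMSO arrays. SDHA had 6.92, 3.25 and 3.66 on Vorinostat and 6.90, 4.64 and 3.63 on DMSO arrays. In both, number 2 was lower by 2.11 and 1.39 log2 units, and the groups differed by at most 0.10 in numbers 1 and 3. SDHB was not analysed here.

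In complex III the 7 genes were all lower in number 2 and 6 of them in number 1. UQCRB, a subunit at the site where coenzyme Q is bound, had 9.37, 4.66 and 5.36 on Vorinostat and 10.09, 6.56 and 6.24 on DMSO arrays. It was lower by 0.72, 1.90 and 0.88 log2 units in numbers 1, 2 and 3 (mean −1.17, SE 1.65, or 0.27 with the block). CYC1, the cytochrome c1 that hands electrons to cytochrome c, had 7.10, 2.61 and 2.21 on Vorinostat and 7.49, 5.40 and 2.79 on DMSO arrays. It was lower in each number, by 2.79 log2 units in number 2 and by 0.39 and 0.58 in the others.

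The core proteins UQCRC1 and UQCRC2 differed from each other in number 3. UQCRC2 had 8.21, 2.41 and 3.31 on Vorinostat and 8.35, 4.58 and 3.63 on DMSO arrays, lower in each number, while its other probe set above 3 had differences of −0.72, −1.14 and 0.54. UQCRC1 had 7.05, 2.26 and 4.27 on Vorinostat and 7.57, 4.61 and 2.89 on DMSO arrays, lower in numbers 1 and 2 and higher by 1.37 in number 3. UQCR10, a small accessory subunit, had 6.69, 4.58 and 5.61 on Vorinostat and 6.83, 5.74 and 5.87 on DMSO arrays (mean difference −0.52, SE 0.61). The remaining genes UQCR11 and UQCRQ were higher in number 3. UQCRFS1 was not analysed here.

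Complex IV had the lowest share of genes that were lower in each number (5.88%), where 13.7% of all genes were. COX7C, a small subunit of the membrane part, was the 1 gene lower in each number, with 9.71, 5.36 and 5.77 on Vorinostat and 9.85, 5.96 and 6.37 on DMSO arrays (mean −0.44, SE 0.14 with the replicate block). After quantile normalisation of the arrays its mean difference was 0.08. Its 2 other probe sets above 3 were higher in number 3, by 1.36 and 0.10, with mean differences of 0.37 and −0.68. COX4I1 and COX5A, which join early in assembly around the first mitochondrially encoded subunit, and COX5B all differed in sign between numbers. COX4I1 had 10.33, 6.44 and 7.56 on Vorinostat and 9.60, 8.00 and 8.04 on DMSO arrays. COX5A had 9.47, 5.92 and 7.42 on Vorinostat and 9.17, 7.33 and 7.31 on DMSO arrays. COX5B had 7.25, 3.57 and 5.29 on Vorinostat and 7.47, 4.54 and 4.17 on DMSO arrays, a mean difference of −0.02.

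The largest difference of any subunit gene within a number belonged to COX7B, with 8.63, 4.18 and 6.45 on Vorinostat and 9.20, 6.50 and 2.28 on DMSO arrays. DMSO array 3 stood lowest and gave a difference of 4.17 in number 3, against −0.57 and −2.32 in numbers 1 and 2. COX7B is named here because this value was seen. On the same array the GAPDH 3′ to 5′ difference was the highest of the 6, at 4.02, while that of ACTB, at 4.04, was under the 4.51 of DMSO array 1, and the part of RNA integrity in the value of COX7B was not tested. COX6C had 9.37, 6.32 and 7.92 on Vorinostat and 9.97, 8.38 and 7.61 on DMSO arrays (mean −0.79, SE 0.97). Isoforms known from muscle, lung or testis (COX4I2, COX6A2, COX6B2, COX7A1, COX7B2 and COX8C) lay under 3 on every array, and COX7A1, the muscle form, had 1.39, 1.75 and 1.94 on Vorinostat and 1.54, 1.52 and 1.64 on DMSO arrays. Without these 6 genes the median of complex IV was 0.08, −1.91 and 0.30 in numbers 1, 2 and 3, with 1 of 11 genes lower in each. The 17 genes ranged between −0.61 and 0.87 in number 1, between −2.41 and 0.36 in number 2 and between −0.60 and 4.17 in number 3.

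In complex V, 8 genes (47.1%) were lower in each number, where 13.7% of all genes and 24.4% of those with a mean above 5 were. All 8 differed most in number 2. ATP5F1A and ATP5F1B encode the alpha and beta subunits that form the catalytic head, and ATP5F1C and ATP5F1E the gamma and epsilon subunits of the central stalk. ATP5F1A had 9.59, 5.89 and 7.62 on Vorinostat and 9.67, 8.03 and 8.44 on DMSO arrays (mean −1.01, SE 1.02). ATP5F1B had 10.22, 5.27 and 6.76 on Vorinostat and 10.21, 7.07 and 6.95 on DMSO arrays, with a difference of 0.01 in number 1. The partners of the head thus both stood lower in numbers 2 and 3 and within 0.10 of DMSO in number 1.

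ATP5F1E had the largest mean difference of complex V, −1.14, with 10.01, 4.26 and 6.77 on Vorinostat and 10.24, 7.31 and 6.92 on DMSO arrays. ATP5F1C, whose promoter holds the NRF1 letters next to the start, had 9.24, 5.10 and 6.98 on Vorinostat and 9.27, 7.57 and 7.32 on DMSO arrays. Both were lower in each number, yet differences in number 2 (−3.05 and −2.47) exceeded those in numbers 1 and 3 (at most 0.34 in size) many times over. The 2 other bright probe sets of ATP5F1C were not lower in each number, with differences of 0.33, −2.64 and 0.71 (mean −0.53) and of −0.12, −1.97 and 1.78 (mean −0.10). In the peripheral stalk, ATP5PD had 9.25, 5.47 and 7.58 on Vorinostat and 9.50, 7.92 and 7.99 on DMSO arrays (mean −1.04, SE 1.04). ATP5PF, the coupling factor 6, had 7.75, 2.68 and 4.72 on Vorinostat and 8.43, 5.20 and 4.80 on DMSO arrays (mean −1.09, SE 1.61). ATP5PO, which connects stalk and head, had 8.12, 3.94 and 5.22 on Vorinostat and 9.35, 5.59 and 5.30 on DMSO arrays, a mean difference of −0.98 (SE 1.55, or 0.34 with the block). ATP5MC1, one of the genes for the proton-carrying c ring, had 5.71, 3.32 and 3.55 on Vorinostat and 5.62, 3.51 and 3.12 on DMSO arrays, and was the 1 gene of complex V with a higher mean (0.11). In number 2 the 17 genes ranged between −3.05 and 0.07, and 16 of them were lower, the exception being ATP5MF, which lay under 3 on every array. In number 1 they ranged between −1.85 and 1.35, with 11 lower, and in number 3 between −0.82 and 1.50, with 10 lower.

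**Figure D4:**
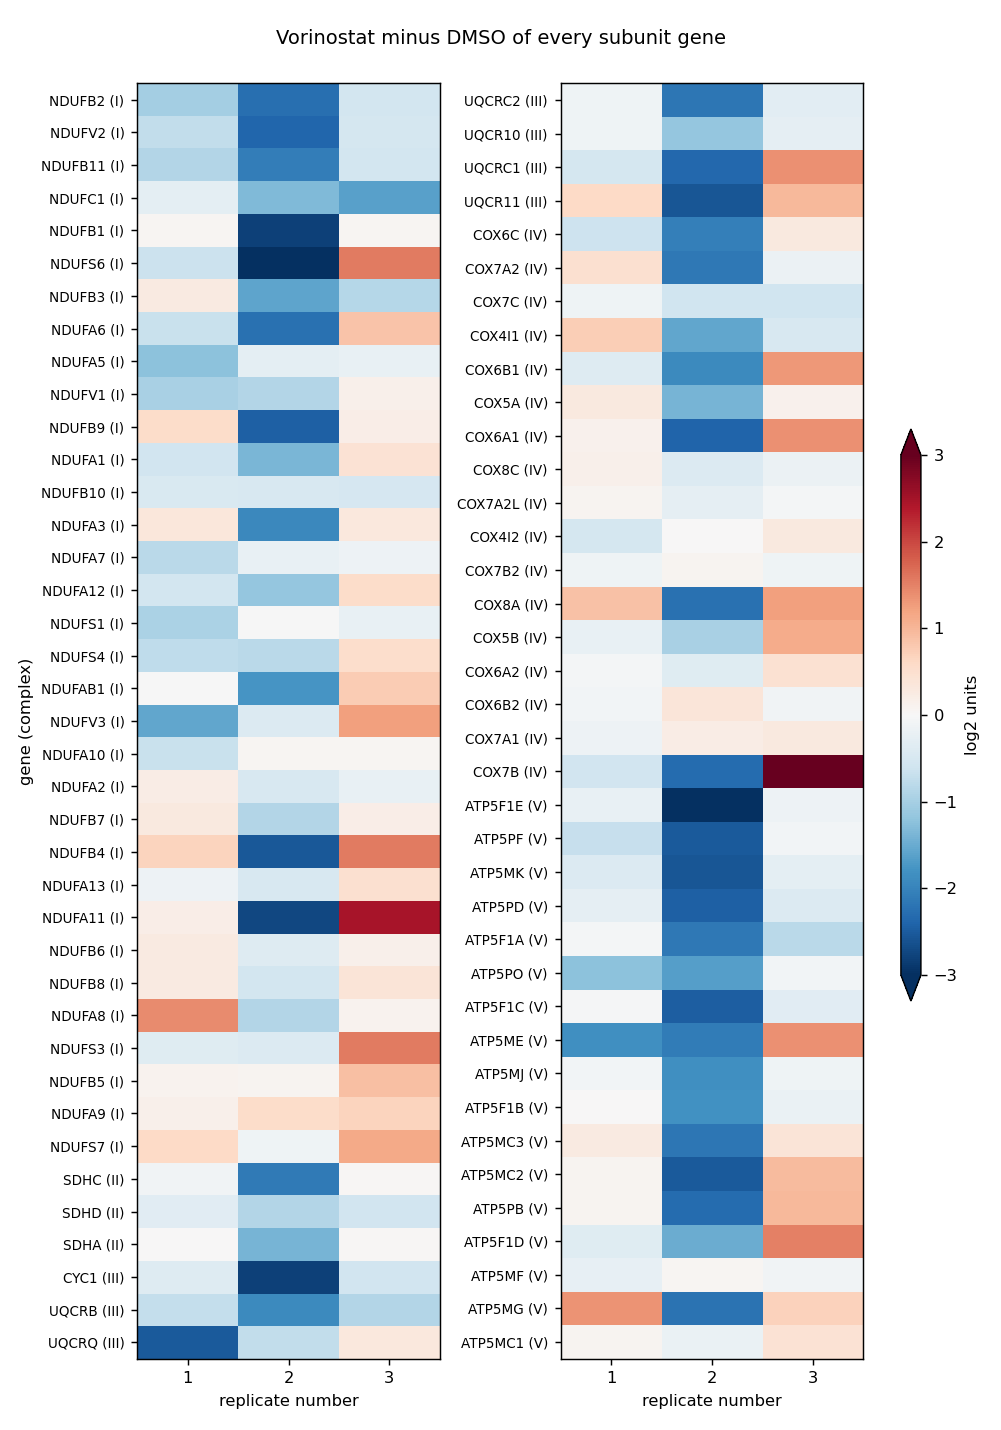
Difference of each of the 77 subunit genes, Vorinostat minus DMSO in log2 units, in replicate numbers 1, 2 and 3, sorted by complex and mean difference; blue is lower and red higher under Vorinostat, and values past 3 in size are drawn at the end of the scale. The middle column is blue for 69 genes and the right column for 32, and COX7B in number 3 is the deepest red.

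Of the 77 genes 12 had a mean under 3 and so lay near background, and none was removed before the test. Where several probe sets of a gene had a mean above 3, which held for 13 genes, all of them agreed in sign for 9 genes in number 1, 13 in number 2 and 6 in number 3. Of the 22 genes lower in each number 6 had several such probe sets, and in 4 of them (ATP5F1C, COX7C, NDUFB10 and UQCRC2) another of these was not lower in each number. Several values rest on probe sets that can also bind related sequences (those of COX4I1, COX7C, SDHA, SDHC, ATP5F1C and NDUFB10 are of the class marked as such by the manufacturer), and processed copies of these genes could not be told apart from them.

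Related lists were set beside the subunit genes, and 0 genes of any of them had an adjusted p under 0.05 by limma, with or without the block. All 55 listed assembly factors, which build the complexes without being part of them, were measured and had medians of −0.21, −0.25 and 0.02 in numbers 1, 2 and 3. In each number 13 (23.6%) of them were lower and 4 (7.27%) higher, where 13.7% of all genes were lower and 13.0% higher. The median level of the assembly factors was 3.55, 2.02 and 2.16 on Vorinostat and 4.29, 2.16 and 1.96 on DMSO arrays, so most were near background. Among 14 transcriptional regulators of respiratory genes 5 (35.7%) were lower in each number, where 13.7% of all genes were, and 11 had both group means under 3. YY1, whose letters were searched in the promoters, had 7.87, 3.94 and 5.15 on Vorinostat and 8.89, 5.87 and 5.24 on DMSO arrays (mean −1.02). NRF1 had 2.32, 1.94 and 2.18 on Vorinostat and 2.62, 2.10 and 1.99 on DMSO arrays, under 3 throughout. The 17 genes of electron carriers and coenzyme Q synthesis had medians of −0.06, −0.23 and −0.01.

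Of 18 listed enzymes of the citric acid cycle and its supply (PC, PDHA1, PDHB and DLAT) 16 were measured, with medians of −0.49, −1.03 and 0.09. In each number 5 (31.2%) were lower, where 13.7% of all genes and 19.5% of those with a mean above 3 were. None of PC, PDHA1, PDHB and DLAT was among these 5. Within this list CS, the citrate synthase that opens the cycle, had 5.53, 3.57 and 3.95 on Vorinostat and 6.95, 4.92 and 5.13 on DMSO arrays (mean −1.31). IDH2, a mitochondrial isocitrate dehydrogenase, had 3.69, 2.19 and 2.74 on Vorinostat and 4.89, 3.79 and 3.45 on DMSO arrays (mean −1.17). Both were lower in each number, and with the replicate block both lay past 2-fold with an unadjusted p under 0.05 by limma, while 0 genes of the list did without it. This made 2 of the 16 listed genes, against 4 of 54 cytosolic and 1 of 75 mitochondrial ribosomal protein genes. In the other 3 lists there were 0, where 0.632% of all genes and 3.26% of those with a mean above 3 were so lower. The 75 mitochondrial ribosomal protein genes had medians of −0.34, −0.60 and 0.12, with 19 (25.3%) lower in each number. The 54 cytosolic ribosomal protein genes, which belong to no mitochondrial pathway, had −0.06, −2.23 and −0.34. In numbers 1 and 2 these medians resembled those of the subunit genes with a mean above 5. The cytosolic genes lower in each number were 21 (38.9%), near the 38.5% of the subunit genes above 5, where 24.4% of all genes above 5 were.

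**Figure D5:**
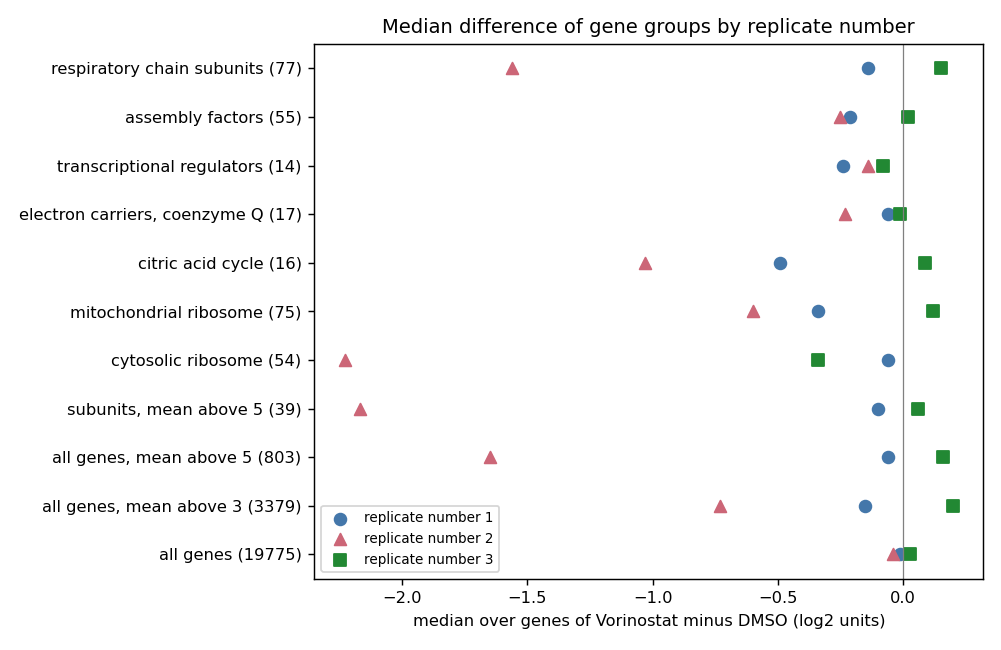
Median difference of each gene group, Vorinostat minus DMSO in log2 units, in replicate numbers 1 (circle), 2 (triangle) and 3 (square), with the number of genes in parentheses. Number 2 lies furthest to the left for the subunit genes and the bright genes alike, and number 3 lies near or above 0 for all but the cytosolic ribosome.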

How the data were processed

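Total RNA of OCI-AML3 cells (3 Vorinostat and 3 DMSO samples) was hybridised to Affymetrix arrays. The authors deposited 1 log2 value per probe set and array after import into Partek Genomics Suite. MAS5 and RMA appear in the processing notes of the submitters, without a version and without saying which made these values. That the scale is log2 was read from the values, and their upper ranges differed between arrays, so they had not been quantile normalised across the 6 arrays. The number of arrays limits the precision.

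Of 54675 probe sets 62 controls were left out and 54613 tested, of which 41091 name 1 gene, 1801 several and 11721 none here. Differences, Vorinostat minus DMSO, were tested without a block by lmFit and eBayes of limma 3.58.1 (R 4.3.3) and p-values adjusted after Benjamini-Hochberg over every probe set tested. limma stood for the Student test of the methods, which was run as an alternative. The code was tested on simulated data with less noise than most subunit genes had, larger changes and no shift shared by a number. That checks the code and not its power on these arrays. The permutation test was not used, since 3 arrays against 3 cannot reach the threshold. Deviations from the group means correlated at 0.874, 0.599 and 0.672 between arrays of the same number, each above 0.1, and samples were therefore treated as paired by number, although Vorinostat 2 with DMSO 3 (0.695) and Vorinostat 3 with DMSO 2 (0.594) were as close and numbers 2 and 3 were not told apart.

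Not members were NDUFC2, NDUFS5, NDUFS8 and UQCRH, whose probe sets name several genes, and NDUFA4, whose present symbol COXFA4 falls outside the rule. Named genes are core subunits, per complex the lowest p in each direction and the largest differences of one sign in all 3 numbers, and every gene past 2-fold with p under 0.05 with or without the block. ATP5PO, COX7B, NDUFA5, CS, IDH2, YY1 and NRF1 were named after their values were seen. The members and lists were chosen with earlier results of these data known. Alternatives were quantile normalisation, centring, the block, the t-test, filters at means of 3 and 5, the mean of all probe sets and each array or number left out.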

Additional observations from a re-analysis of the deposited data

How the results depend on the processing

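With limma and the replicate block, 5 subunit genes were lower past 2-fold with an unadjusted p under 0.05, against 0 without it. Over all probe sets, where 15 were lower and 9 higher, the replicate block gave 175 lower and 52 higher, quantile normalisation 71 and 46, the methods' t-test 2 and 3, and leaving out arrays between 0 and 205 lower and between 5 and 99 higher. For the subunit genes, leaving out 1 array or number gave between 0 and 4 lower (1 without Vorinostat replicate 1, 4 without number 1) and between 0 and 1 higher (1 without Vorinostat replicate 2). Subunit genes lower in all 3 numbers were 22 as deposited, 15 after quantile normalisation and 17 with the mean of all probe sets. With each array centred on its median they were again 22. Genes lower in at least 2 numbers came to 52. Genes lower in both remaining numbers, an alternative chosen after seeing the data, came to between 25 (without number 2) and 42 (without number 3). Left-out arrays moved the median of all subunit genes between −1.49 and 0.29, of complex I between −1.24 and 0.55, of complex II between −1.56 and 0.23, of complex III between −1.76 and 0.08, of complex IV between −1.01 and 0.40 and of complex V between −1.96 and 0.20, the low ends without Vorinostat replicate 1. Quantile normalisation gave a median of −0.14 for all subunit genes (−0.06, −0.58 and 0.16 in numbers 1, 2 and 3), and the mean of all probe sets −0.23. After quantile normalisation all genes with a mean above 5 had medians of 0.02, −0.43 and 0.00 in these numbers. Leaving out arrays or numbers turned the sign of 22 of the 32 named genes or brought it to 0, the exceptions being ATP5F1A, ATP5PD, COX6C, CYC1, NDUFB2, NDUFB10, NDUFB11, NDUFC1, NDUFS7 and SDHC. Among the 22 were ranges of −0.65 to 0.88 for ATP5MC1, −0.00 to 0.27 for COX7A1, −2.95 to 0.29 for NDUFV2, −1.05 to 0.00 for UQCR10 and −2.62 to 0.06 for UQCRB. These ranges include single left-out arrays, whose partner of the same number stayed in the other group. With whole numbers left out, NDUFV2 lay between −1.56 and −0.64, UQCR10 between −0.71 and −0.20 and UQCRB between −1.39 and −0.80. COX7A1 then lay between 0.04 and 0.26, and ATP5MC1 still turned, between −0.05 and 0.26. The cause was not tested. Adding NDUFA4 to complex IV gave −0.11. Groups of 3 arrays limit every value.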
